A study of Homo sapiens with 6 samples.

Results

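Kinetochore and spindle checkpoint genes were examined in the human breast cancer cell line MDA-MB-231. The kinetochore is the protein assembly that joins a centromere to spindle microtubules in mitosis. Chromatin marked by the histone variant CENPA carries the constitutive centromere-associated network (CCAN), which recruits the microtubule-binding KMN network. The spindle checkpoint holds the anaphase-promoting complex (APC/C) in check, through its activator CDC20, until the chromosomes are attached. Transcripts of many of these genes are known to rise toward mitosis, so they are widely used as markers of dividing cells. The list named 42 genes by their symbols, with no threshold on measured values, but it was drawn up with earlier results of these data known. Of these, 41 were measured among 19775 genes, since the probe set for CENPP is annotated to several genes. The measured genes had 79 probe sets.

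The study compared 3 arrays of cells transfected with an HS3ST2 expression plasmid with 3 arrays of cells that received a control vector. HS3ST2 encodes a heparan sulfate 3-O-sulfotransferase. The labels call the arrays of a group independent replicates, but do not say whether they were separate transfections, how long after transfection RNA was taken, or whether cells were selected. The spread behind the p-values is that between arrays, and it may be technical. Values are on a log2 scale, with 0 at the median of the 6 arrays for each probe set. Levels of different genes cannot be compared, and the identity of the cells cannot be checked from their markers. Nor can a gene that did not change be told from a gene whose probe sets give little signal. Where all HS3ST2 values of a probe set lie below all control values, this centring puts the highest HS3ST2 value and the lowest control value at equal distances from 0. HS3ST2 itself had values of 0.16, 0.04 and -0.04 in the arrays labelled HS3ST2, against -0.22, 0.17 and -0.11 in the control arrays. The groups overlapped, with a difference of 0.11 ± 0.10 (SE, n = 3 per group, limma adjusted p = 0.523). These values come from 1 probe set, and whether it matches the transcript of the plasmid is not known. Every direction therefore rests on the labels, and the arrays are called HS3ST2-labelled.

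Most of the kinetochore and checkpoint genes fell in the HS3ST2-labelled arrays, and none was called higher. By limma at an adjusted p under 0.05, 29 of 41 measured genes fell (70.7%), where 13% of all genes on the array were called lower. The centred values allow no filter on signal, so shares over all genes take in genes that these cells may not express. They may therefore be lower than shares over expressed genes alone. No member was called higher, against 11.5% of all genes, and 12 were not called. Of these 12, CENPL, CENPI and CENPA had an unadjusted p under 0.05 in the downward direction and ZW10 in the upward direction. The median difference of the 41 genes was -0.44, against 0.01 over all genes. The median of the members was -0.26, -0.24 and -0.25 in the HS3ST2-labelled arrays, against 0.32, 0.29 and 0.21 in the control arrays. The 3 HS3ST2-labelled arrays lay close together, while the control arrays spread more, and control replicate 3 had the lowest value of its group in 28 of the 41 genes. In these cultures, fewer mitotic cells and less of each RNA per mitotic cell cannot be told apart.

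For 34 members all HS3ST2-labelled arrays lay below all control arrays, which held for 20.9% of all genes. In ZW10 they all lay above. Falls of at least 1 log2 were seen in 6 members, CDC20, CENPW, CENPF, CENPE, TTK and NUF2, and in 0.47% of all genes. Counted from the lowest difference on the array, CDC20 stood at place 16 and CENPW at place 31. The typical spread between arrays of a group was no wider for the members than elsewhere. The median SD of the members was 0.07 in the HS3ST2-labelled group and 0.07 in the control group, against 0.07 and 0.08 over all genes.

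**Figure D1:**
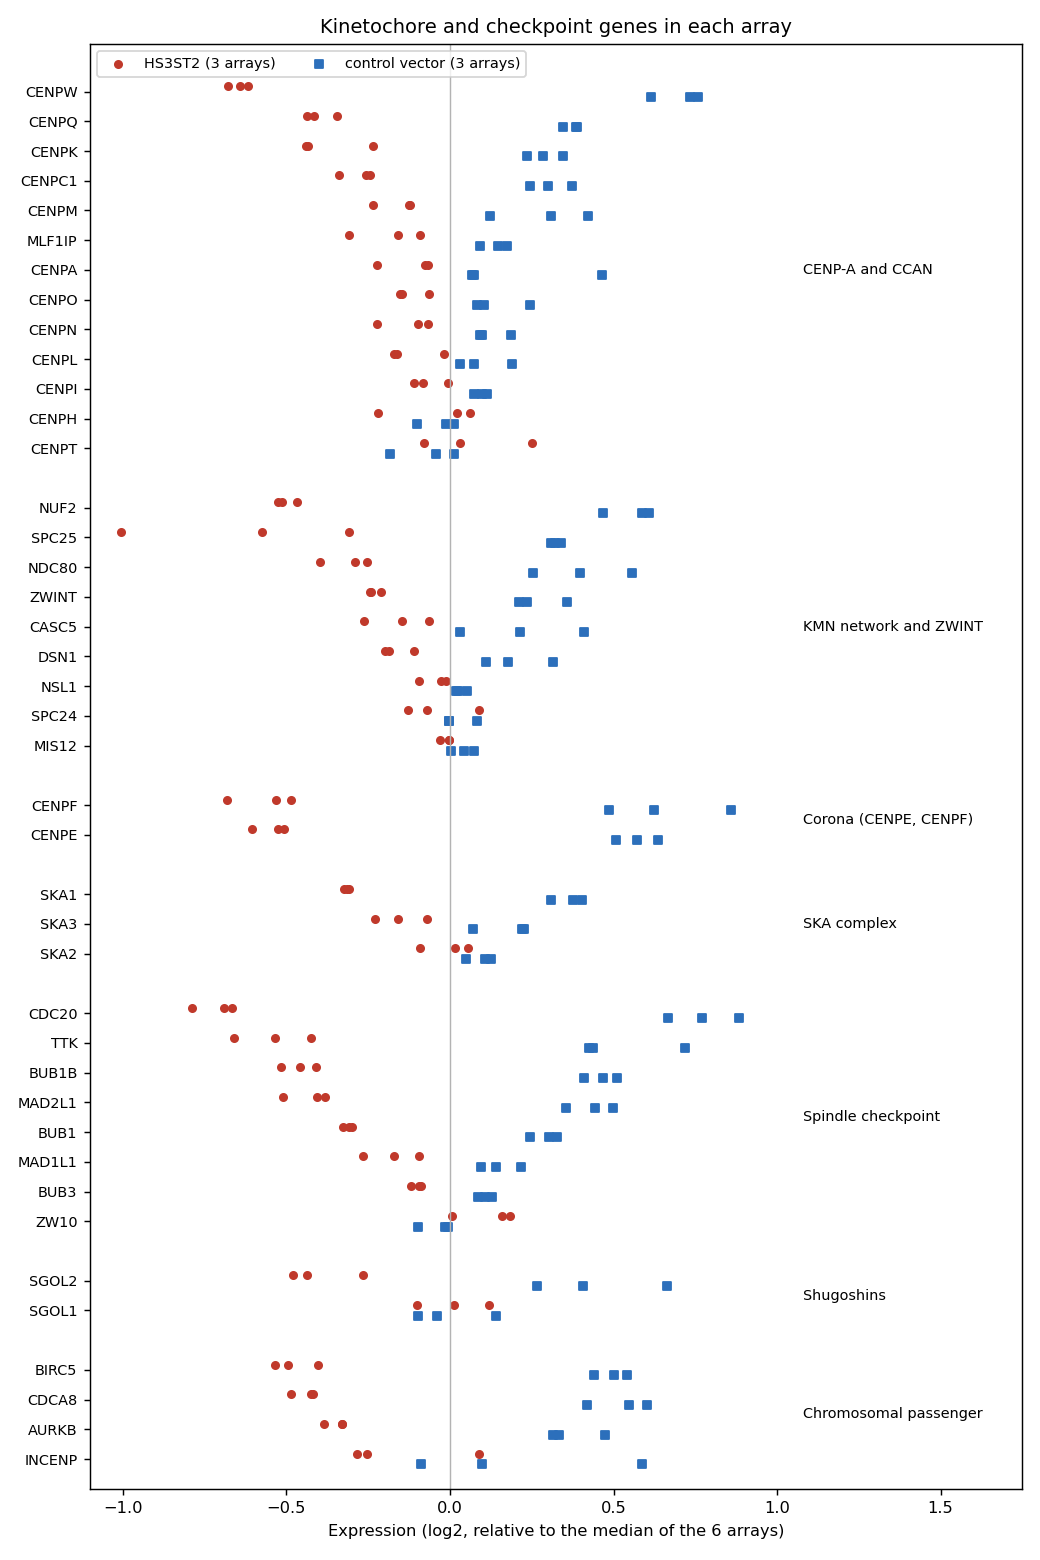
Expression of the 41 members in each array (log2, relative to the median of the 6 arrays), grouped by role, with HS3ST2-labelled arrays as circles and control vector arrays as squares. The circles of 34 members lie wholly to the left of the squares, and in 6 members the groups overlap.

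**Figure D2:**
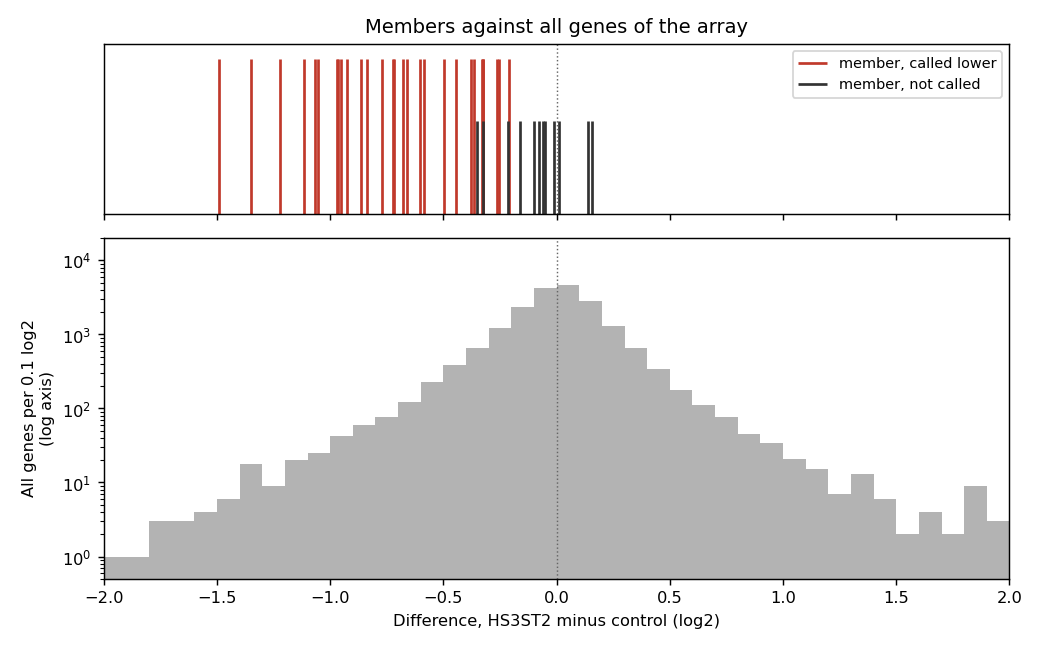
Differences between the groups (HS3ST2 minus control, log2) of the members, drawn as lines, above the number of all 19775 genes per 0.1 log2 on a log axis. The 29 members called lower reach to -1.49, while the median of all genes is 0.01.

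The promoters of the members were examined for elements known from cell cycle genes. Promoters of genes expressed late in the cell cycle are known for the CHR element, bound by the DREAM and MuvB complexes, and for the CCAAT box, bound by NF-Y. RefSeq's promoter windows on GRCh38.p14, from 250 bases before to 50 after the start, were found for 34 of the 42 listed genes. A CHR element was taken as TTTGAA on either strand or as TTCGAA, which reads the same on both. It was present in 20 of these 34 windows (58.8%), against 13.3% of 15384 genes on the array and 16.6% of all 27305 genes with a window. CCAAT on either strand was present in 22 windows (64.7%), against 36.1% of genes on the array and 35.7% of all genes with a window. Both stood in 14 windows (41.2%), against 5.43% of genes on the array and 6.58% of all genes with a window. An E2F core, taken as TTCCCGC or TTGGCGC on either strand, was present in 7 windows (20.6%), against 12.2% of genes on the array and 9.33% of all genes with a window. A match is a run of letters and does not show that a factor binds.

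Both elements occurred in genes that fell and in genes that were not called, and the difference in their shares was not tested. CHR was present in 16 of 24 members that fell (66.7%) and in 4 of 10 that were not called (40%: CENPA, ZW10, SGOL1 and INCENP). CCAAT was present in 15 of the 24 (62.5%) and in 7 of the 10 (70%). Members with CHR had a median difference of -0.64, and members without it had -0.33, with ranges of -1.49 to 0.16 and -1.12 to 0.14. Of the 20 genes with CHR, 17 had a match that began within 50 bases of the start. The same share was not counted over all genes with CHR, so this closeness cannot be called particular to the members.

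The following 9 promoters, chosen after their values were seen, run from 150 bases before to 30 after the start on the gene's strand, with CHR and CCAAT matches in capitals. The first 6 belong to genes with large falls and hold CHR. CENPE fell with neither element in its window, SGOL1 was not called although it holds both, and CENPT was not called and holds neither. In CDCA8 the CHR and a CCAAT on the other strand overlap by a base, and in ZW10, not shown, a CCAAT and an E2F core overlap. On GRCh38.p14 they lie at chr1:43358831-43359010, plus strand for CDC20, chr6:126339965-126340144, plus strand for CENPW, chr1:163321804-163321983, plus strand for NUF2, chr15:40160919-40161098, plus strand for BUB1B, chr1:37692366-37692545, plus strand for CDCA8, chr2:168890401-168890580, minus strand for SPC25, chr4:103198314-103198493, minus strand for CENPE, chr3:20186177-20186356, minus strand for SGOL1 and chr16:67847664-67847843, minus strand for CENPT.
CDC20: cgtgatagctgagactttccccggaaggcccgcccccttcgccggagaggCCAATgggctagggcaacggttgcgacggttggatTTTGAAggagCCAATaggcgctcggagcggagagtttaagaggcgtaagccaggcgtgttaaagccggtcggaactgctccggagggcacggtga
CENPW: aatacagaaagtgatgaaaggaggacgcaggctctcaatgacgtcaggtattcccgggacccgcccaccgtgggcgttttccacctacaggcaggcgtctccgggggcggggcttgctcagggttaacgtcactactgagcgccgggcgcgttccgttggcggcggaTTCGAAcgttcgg
NUF2: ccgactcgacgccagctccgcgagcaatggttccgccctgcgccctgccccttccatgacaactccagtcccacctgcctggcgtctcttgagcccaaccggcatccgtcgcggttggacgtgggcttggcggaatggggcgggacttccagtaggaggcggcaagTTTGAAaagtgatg
BUB1B: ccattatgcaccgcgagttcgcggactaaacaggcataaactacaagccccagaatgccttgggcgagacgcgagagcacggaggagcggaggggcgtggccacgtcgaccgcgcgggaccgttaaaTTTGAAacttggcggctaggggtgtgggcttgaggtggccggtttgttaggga
CDCA8: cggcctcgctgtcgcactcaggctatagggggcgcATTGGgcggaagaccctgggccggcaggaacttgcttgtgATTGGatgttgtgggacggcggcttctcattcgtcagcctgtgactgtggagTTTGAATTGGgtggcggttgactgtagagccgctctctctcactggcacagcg
SPC25: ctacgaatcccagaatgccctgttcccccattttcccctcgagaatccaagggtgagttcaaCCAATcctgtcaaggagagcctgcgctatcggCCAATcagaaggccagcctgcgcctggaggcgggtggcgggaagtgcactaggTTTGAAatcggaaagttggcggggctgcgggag
CENPE: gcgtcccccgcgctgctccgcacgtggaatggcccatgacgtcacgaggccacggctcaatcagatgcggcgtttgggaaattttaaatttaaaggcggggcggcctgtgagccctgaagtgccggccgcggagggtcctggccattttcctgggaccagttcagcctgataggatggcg
SGOL1: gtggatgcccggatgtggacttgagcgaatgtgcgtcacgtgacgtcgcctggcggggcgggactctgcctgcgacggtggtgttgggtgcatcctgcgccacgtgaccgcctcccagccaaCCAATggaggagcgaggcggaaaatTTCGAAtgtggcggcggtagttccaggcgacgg
CENPT: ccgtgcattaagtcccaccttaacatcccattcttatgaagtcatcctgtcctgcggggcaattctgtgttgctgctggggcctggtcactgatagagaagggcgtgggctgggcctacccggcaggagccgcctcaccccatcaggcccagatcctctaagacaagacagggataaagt

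**Figure D3:**
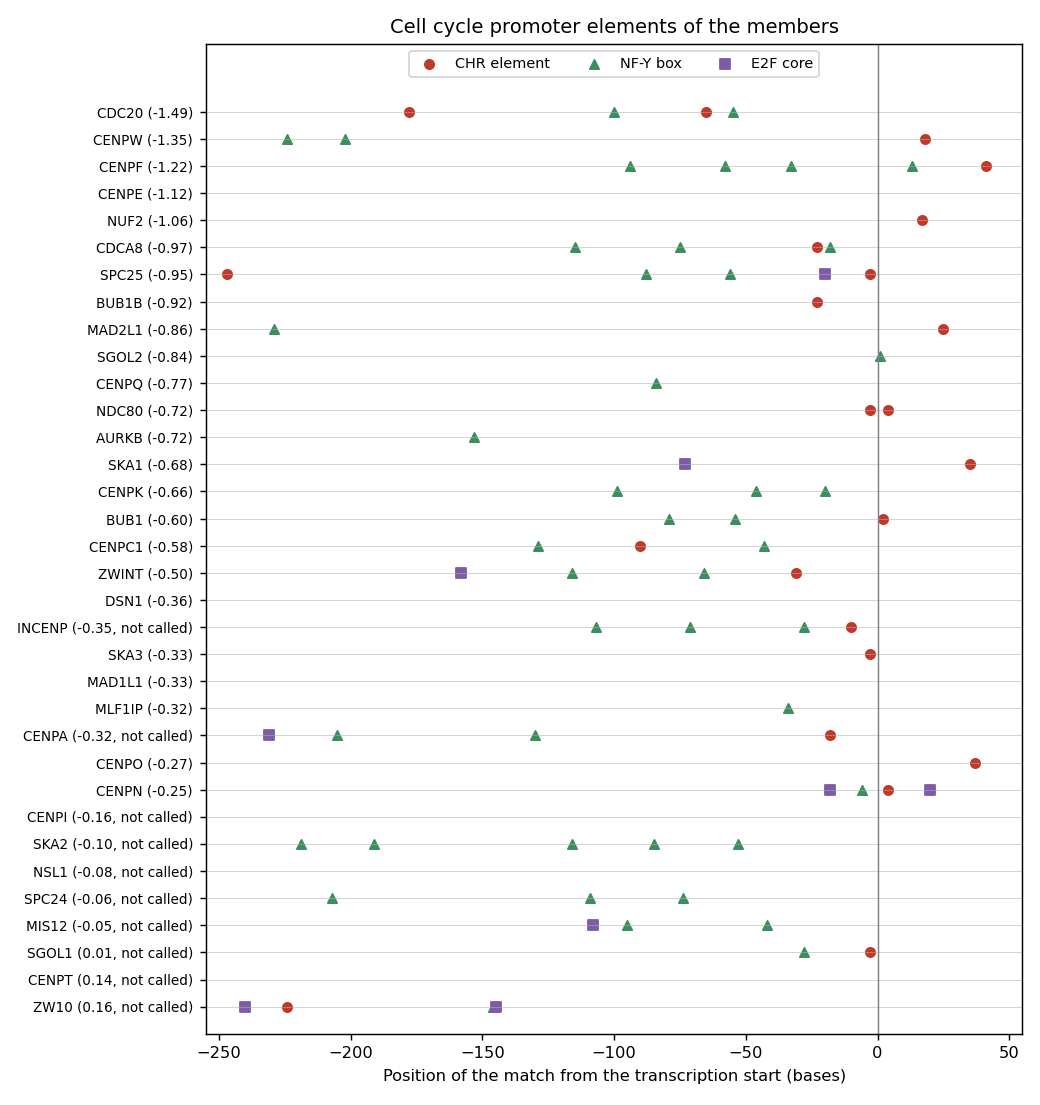
Position of CHR elements (circles), NF-Y boxes (triangles) and E2F cores (squares) in the windows of 34 members, in bases from the transcription start, with members ordered by their difference (log2, in brackets, HS3ST2 minus control). CHR matches of 17 genes begin within 50 bases of the start, among them the uncalled SGOL1, INCENP and CENPA.

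Among CENP-A and the CCAN, which build the inner kinetochore, 8 of 13 measured genes fell and 5 were not called, with a median difference of -0.32. CENPW, which forms the histone-fold complex with CENPT, was at -0.62, -0.64 and -0.68 in the HS3ST2-labelled arrays, against 0.76, 0.73 and 0.62 in the control arrays. The groups were far apart and each was tight. CENPW fell by 1.35 ± 0.06 (SE, n = 3 per group, limma adjusted p = 8.76e-06), to 39.3% of the control level. CENPQ, a subunit of the CENP-O group, was at -0.42, -0.44 and -0.34 in the HS3ST2-labelled arrays, against 0.38, 0.34 and 0.39 in the control arrays. No array of either group came near the other, and CENPQ fell by 0.77 ± 0.05 (SE). CENPK fell by 0.66 ± 0.07 (SE), CENPC1 (now CENPC), which binds CENP-A nucleosomes, by 0.58 ± 0.06 and CENPM by 0.44 ± 0.08. MLF1IP (now CENPU) fell by 0.32 ± 0.07, CENPO by 0.27 ± 0.06 and CENPN, a reader of CENP-A nucleosomes, by 0.25 ± 0.06. Limma adjusted p-values for these genes were 0.0199 or less.

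The smaller falls of this group were less stable. CENPN was not called without HS3ST2 replicate 2 (-0.21) or control replicate 1 (-0.22), and CENPO was not called without HS3ST2 replicate 2 (-0.25) or HS3ST2 replicate 3 (-0.25). Neither of the 2 probe sets of CENPO was called by itself, and with the one of larger SD the gene was not called (-0.36, limma adjusted p = 0.0536). A probe set with an _x_at or _s_at ending can match several transcripts. When such probe sets were left out, neither CENPN (-0.12) nor MLF1IP (-0.17) was called.

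The 5 genes of CENP-A and the CCAN that were not called differed among themselves. CENPA, the centromeric histone itself, was at -0.08, -0.07 and -0.22 in the HS3ST2-labelled arrays, against 0.47, 0.07 and 0.07 in the control arrays. The groups did not overlap, but 1 control array was far above the others, and the difference was -0.32 ± 0.11 (SE, limma adjusted p = 0.0697). A second probe set, annotated to both SLC35F6 and CENPA and so left out of the gene, was at -0.36, -0.46 and -0.26 in the HS3ST2-labelled arrays, against 0.52, 0.48 and 0.26 in the control arrays. It fell by 0.78 ± 0.09 (SE, limma adjusted p = 0.00134 over probe sets). CENPI (-0.16 ± 0.05) and CENPL (-0.22 ± 0.07) had limma adjusted p-values of 0.0594 and 0.0529, and CENPL was called without HS3ST2 replicate 3 (-0.26), without _x_at and _s_at probe sets (-0.31) or with its probe set of largest SD (-0.31). In CENPI 1 of 4 probe sets was called lower, at -0.66, and the other 3 lay between -0.09 and 0.08. CENPH had a difference of -0.01 ± 0.08, with a 95% interval from -0.20 to 0.18. CENPT, the partner of CENPW, was at 0.14 ± 0.09, with an interval from -0.08 to 0.36. The probe sets of CENPT were at 0.33, called higher among probe sets, and -0.05. That call was kept without HS3ST2 replicate 1 and lost when any 1 of the other 5 arrays was left out.

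The KMN network, with NDC80, MIS12 and KNL1 subcomplexes, makes the main contact with microtubules, and ZWINT binds to it. Of these 9 genes, 6 fell and 3 were not called. NUF2, a subunit of the NDC80 complex, was at -0.51, -0.47 and -0.53 in the HS3ST2-labelled arrays, against 0.61, 0.59 and 0.47 in the control arrays. The values within each group were close, and NUF2 fell by 1.06 ± 0.06 (SE, limma adjusted p = 2.07e-05), to 48.1% of the control level. SPC25, of the same complex, was at -1.01, -0.57 and -0.31 in the HS3ST2-labelled arrays, against 0.32, 0.34 and 0.31 in the control arrays. The control arrays were nearly equal, whereas the HS3ST2-labelled arrays spread widely, and SPC25 fell by 0.95 ± 0.15 (SE, limma adjusted p = 0.00286). NDC80 fell by 0.72 ± 0.08 (SE), ZWINT by 0.50 ± 0.06 and DSN1, of the MIS12 complex, by 0.36 ± 0.07.

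CASC5 (now KNL1), the scaffold to which BUB1 and BUB3 dock, fell by 0.38 ± 0.10 (SE, limma adjusted p = 0.0275). That call was lost without HS3ST2 replicate 1 (-0.32), HS3ST2 replicate 2 (-0.38), control replicate 1 (-0.28) or control replicate 2 (-0.38). Of its 4 probe sets 2 were called lower. The other members of the network showed little difference. SPC24, the fourth subunit of the NDC80 complex, was at -0.06 ± 0.07 (SE), with a 95% interval from -0.22 to 0.10. MIS12 was at -0.05 ± 0.05, with an interval from -0.17 to 0.06, and NSL1 at -0.08 ± 0.05, with an interval from -0.19 to 0.04. The 2 probe sets of SPC24 were at 0.03 and -0.15, neither of them called. Within the NDC80 complex, NDC80, NUF2 and SPC25 were thus called lower and SPC24 was not. Whether SPC24 differs from the other 3 was not tested, and whether its probe sets detect its RNA in these cells is not known.

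CENPE and CENPF, large proteins of the outer corona of the kinetochore, both fell. CENPF was at -0.49, -0.68 and -0.53 in the HS3ST2-labelled arrays, against 0.86, 0.62 and 0.49 in the control arrays. Control replicate 1 was the highest array, and the groups were far apart. CENPF fell by 1.22 ± 0.10 (SE, limma adjusted p = 0.000122), and all 3 of its probe sets were called, at -1.33, -1.31 and -1.03. CENPE, a kinesin that carries chromosomes toward the spindle equator, was at -0.60, -0.51 and -0.52 in the HS3ST2-labelled arrays, against 0.57, 0.64 and 0.51 in the control arrays. The arrays of each group were close together, and CENPE fell by 1.12 ± 0.06 (SE, limma adjusted p = 1.76e-05).

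The SKA complex tracks microtubule ends together with NDC80, and 2 of its 3 genes fell. SKA1 was at -0.31, -0.32 and -0.32 in the HS3ST2-labelled arrays, against 0.31, 0.40 and 0.38 in the control arrays. The HS3ST2-labelled arrays were nearly equal, and SKA1 fell by 0.68 ± 0.05 (SE, limma adjusted p = 8.62e-05). SKA3 was at -0.23, -0.07 and -0.16 in the HS3ST2-labelled arrays, against 0.23, 0.22 and 0.07 in the control arrays. Its groups came closer to each other but did not overlap, and SKA3 fell by 0.33 ± 0.07 (SE, limma adjusted p = 0.00966). SKA2 was at -0.09, 0.06 and 0.01 in the HS3ST2-labelled arrays, against 0.11, 0.12 and 0.05 in the control arrays. The groups overlapped and SKA2 was not called (-0.10 ± 0.06, limma adjusted p = 0.268). Its probe sets went apart, at -0.37, called lower, and 0.16, not called.

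The spindle checkpoint genes included the largest fall of the 41 members, and 7 of 8 fell. CDC20, the APC/C activator that the checkpoint binds, was at -0.67, -0.79 and -0.69 in the HS3ST2-labelled arrays, against 0.88, 0.77 and 0.67 in the control arrays. The groups lay more than 1 log2 apart, and CDC20 was at 35.6% of the control level (limma adjusted p = 1.17e-05). This value rests on 1 probe set with an _s_at ending, so the fall of CDC20 could not be examined without such probe sets. TTK, the kinase also called MPS1 that starts checkpoint signalling, was at -0.66, -0.54 and -0.43 in the HS3ST2-labelled arrays, against 0.43, 0.72 and 0.44 in the control arrays. Control replicate 2 stood above the other control arrays, and TTK fell by 1.07 ± 0.10 (SE, limma adjusted p = 0.000187). BUB1B, which encodes the checkpoint protein BUBR1, fell by 0.92 ± 0.06 (SE), and MAD2L1, which encodes MAD2, fell by 0.86 ± 0.06 with all 3 probe sets called.

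BUB1, a checkpoint kinase, was at -0.31, -0.30 and -0.33 in the HS3ST2-labelled arrays, against 0.30, 0.33 and 0.25 in the control arrays. The mean hides a split among its 5 probe sets, of which 3 were called lower (-1.26, -0.95 and -0.58) and 2 lay near 0 (-0.12 and -0.10). BUB1 as a gene fell by 0.60 ± 0.05 (SE, limma adjusted p = 0.000136). MAD1L1, which encodes the MAD2 partner MAD1, fell by 0.33 ± 0.06 (SE). BUB3, the partner of BUB1 and BUBR1, fell by only 0.21 ± 0.05 (limma adjusted p = 0.016), with 2 of 6 probe sets called. The call of BUB3 was lost without HS3ST2 replicate 1 (-0.20), without control replicate 2 (-0.20) or without the _x_at and _s_at probe sets (-0.09). ZW10, which helps to bring MAD1 to kinetochores, was at 0.16, 0.18 and 0.01 in the HS3ST2-labelled arrays, against -0.10, -0.01 and -0.02 in the control arrays. It was the only member of the 41 whose HS3ST2-labelled arrays all lay above the control arrays, but it was not called (0.16 ± 0.06, limma adjusted p = 0.123).

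Of the shugoshins, which protect centromeric cohesion, SGOL2 fell and SGOL1 was not called. SGOL2 (now SGO2) was at -0.48, -0.44 and -0.27 in the HS3ST2-labelled arrays, against 0.66, 0.41 and 0.27 in the control arrays. It fell by 0.84 ± 0.11 (SE, limma adjusted p = 0.000931), and both of its probe sets were called. SGOL1 (now SGO1) was at 0.01, -0.10 and 0.12 in the HS3ST2-labelled arrays, against -0.04, 0.14 and -0.10 in the control arrays. The groups were fully mixed, with a difference of 0.01 ± 0.08 (SE, limma adjusted p = 0.956) and a 95% interval from -0.18 to 0.20. This mean joins 2 probe sets of opposite sign, at 0.14 and -0.12, neither of them called. In the probe set at -0.12 all HS3ST2-labelled arrays lay below all control arrays. The intervals of SGOL1 and SGOL2 do not overlap, although the contrast between the genes was not tested.

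The chromosomal passenger complex corrects faulty attachments through the kinase AURKB, and 3 of its 4 genes fell. BIRC5, which encodes survivin, was at -0.49, -0.40 and -0.53 in the HS3ST2-labelled arrays, against 0.54, 0.50 and 0.44 in the control arrays. It fell by 0.97 ± 0.06 (SE, limma adjusted p = 2.98e-05), and all 4 of its probe sets were called. CDCA8, which encodes borealin, was at -0.42, -0.42 and -0.49 in the HS3ST2-labelled arrays, against 0.60, 0.55 and 0.42 in the control arrays. Its fall of 0.97 ± 0.06 (SE, limma adjusted p = 4.33e-05) was close to that of BIRC5. AURKB fell by 0.72 ± 0.06, with probe sets at -1.16, called, and -0.28, not called. INCENP, the scaffold of the complex, was at 0.09, -0.26 and -0.29 in the HS3ST2-labelled arrays, against 0.59, -0.09 and 0.10 in the control arrays. Replicate 1 was high in both groups, the groups overlapped, and INCENP was not called (-0.35 ± 0.17, limma adjusted p = 0.195).

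**Figure D4:**
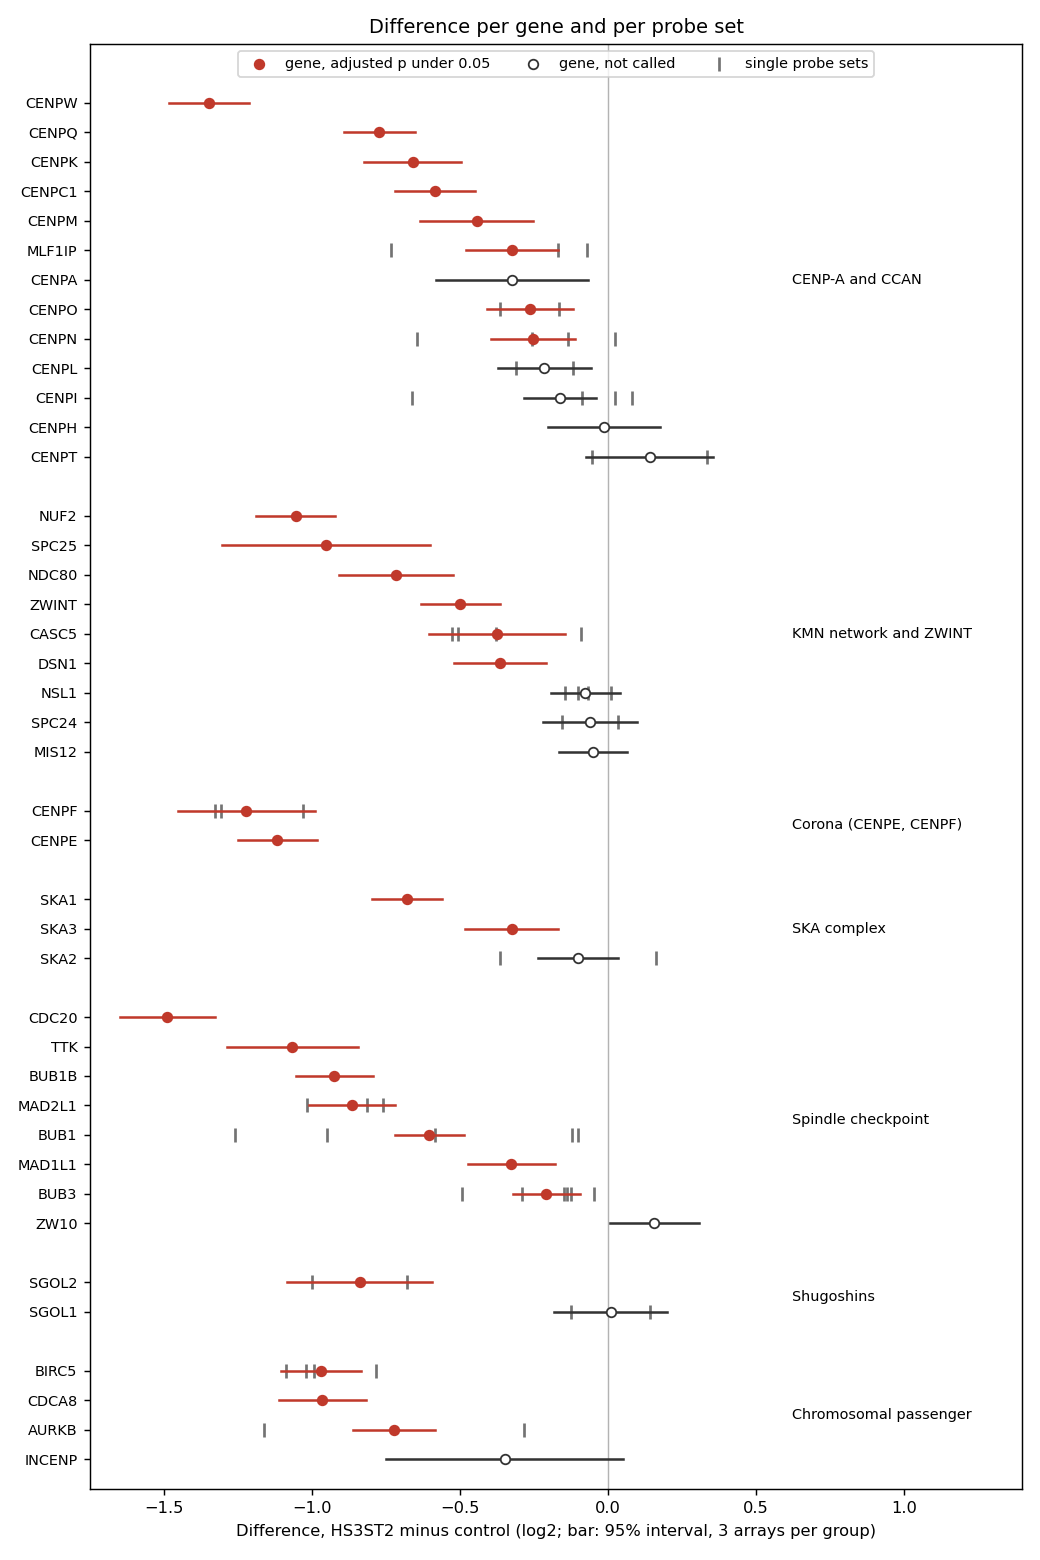
Difference between the groups (HS3ST2 minus control, log2) for each member with its 95% interval (3 arrays per group), and ticks for the single probe sets of members with more than 1. Filled points are the 29 genes called lower and open points the 12 not called. The ticks of BUB1 span -1.26 to -0.10.

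Probe sets of the same gene often disagreed. Of 79 probe sets, 43 were called lower and 1 higher (CENPT), where 8.98% and 7.9% of all probe sets were called lower and higher. Of the 18 members with several probe sets, all were called lower in 4 (BIRC5, CENPF, MAD2L1 and SGOL2), some in 9 and none in 5. Counting a gene by any called probe set, 31 members had at least 1 that was lower, among them the uncalled CENPI, CENPL and SKA2. A gene with mixed probe sets shows a smaller mean difference than its lowest probe set, as for BUB1, CENPN and MLF1IP.

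Other genes of kinetochore assembly, loading and regulation were mostly lower as well. Of 28 measured genes 19 fell (67.9%), 1 rose and 8 were not called, with a median difference of -0.39. Of all genes, 13% were called lower and 11.5% higher. KIF2C, a microtubule-depolymerising kinesin, fell by 1.37 ± 0.08 (SE), the kinase NEK2 by 1.37 ± 0.07, and TRIP13, which remodels MAD2, by 0.95 ± 0.05. PLK1, a mitotic kinase, fell by 1.33 ± 0.10. Named after their values were seen, HJURP and OIP5, which load CENPA at centromeres, fell by 0.85 ± 0.07 and 0.92 ± 0.07. The gene that rose was BOD1 (0.19 ± 0.05, limma adjusted p = 0.0345), and its call was lost without any 1 of the HS3ST2-labelled arrays, control replicate 2 or control replicate 3. With _x_at and _s_at probe sets left out, 12 of 23 measured genes fell.

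Among the APC/C, its ubiquitin enzymes and its substrates, most genes fell. Of 21 measured genes 13 fell (61.9%), where 13% of all genes were called lower. Another 3 rose, a share near the 11.5% of all genes called higher, and 5 were not called. The substrates PTTG1, which encodes securin, CCNB1 and CCNA2 fell by 0.89 ± 0.05, 0.98 ± 0.06 and 0.86 ± 0.06 (SE), and UBE2C, the ubiquitin-conjugating partner of the APC/C, fell by 0.81 ± 0.07. Among genes of APC/C subunits, 3 rose, ANAPC16 by 0.37 ± 0.05, CDC16 by 0.33 ± 0.06 and ANAPC7 by 0.23 ± 0.06. The value of ANAPC7 is the mean of 2 probe sets called in opposite directions, at -0.23 and 0.70. Another 6 subunit genes fell, named after their values were seen: ANAPC4 (-0.43 ± 0.06), ANAPC11 (-0.42 ± 0.08), CDC23 (-0.38 ± 0.06), ANAPC2 (-0.31 ± 0.07), CDC26 (-0.25 ± 0.06) and CDC27 (-0.20 ± 0.05).

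Cohesin and its regulators showed a share of calls near that of the whole array. Of 13 measured genes 2 fell (CDCA5, which encodes sororin, by 0.59 ± 0.07 and PDS5A by 0.39 ± 0.05, SE), STAG1 rose by 0.39 ± 0.05 and 10 were not called. The median difference was -0.02, and 2 genes rose without control replicate 1. The cohesin core genes SMC1A (-0.10 ± 0.06), SMC3 (-0.02 ± 0.08) and RAD21 (-0.19 ± 0.06) were not called. Of these, RAD21 had the smallest limma adjusted p (0.0571). Its groups did not overlap, and 1 of its 2 probe sets was called lower.

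Of 17 regulators that are known to drive or repress transcription of these genes, 3 were lower (17.6%), 5 higher and 9 not called, where 13% of all genes were lower and 11.5% higher. FOXM1 and MYBL2, activators of mitotic genes, fell by 0.76 ± 0.06 and 0.37 ± 0.07 (SE), and RBL1, which encodes the pocket protein p107, fell by 0.32 ± 0.06. RBL2, which encodes the DREAM subunit p130, rose by 0.53 ± 0.06. The NF-Y subunit genes NFYA and NFYB rose by 0.26 ± 0.06 and 0.20 ± 0.05, while NFYC was not called (-0.07, limma adjusted p = 0.342), and TFDP1, the E2F partner, rose by 0.28 ± 0.06. Without HS3ST2 replicate 3 there were 3 genes higher, and without control replicate 2 there were 2. At an adjusted p under 0.01 there was 1, RBL2.

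**Figure D5:**
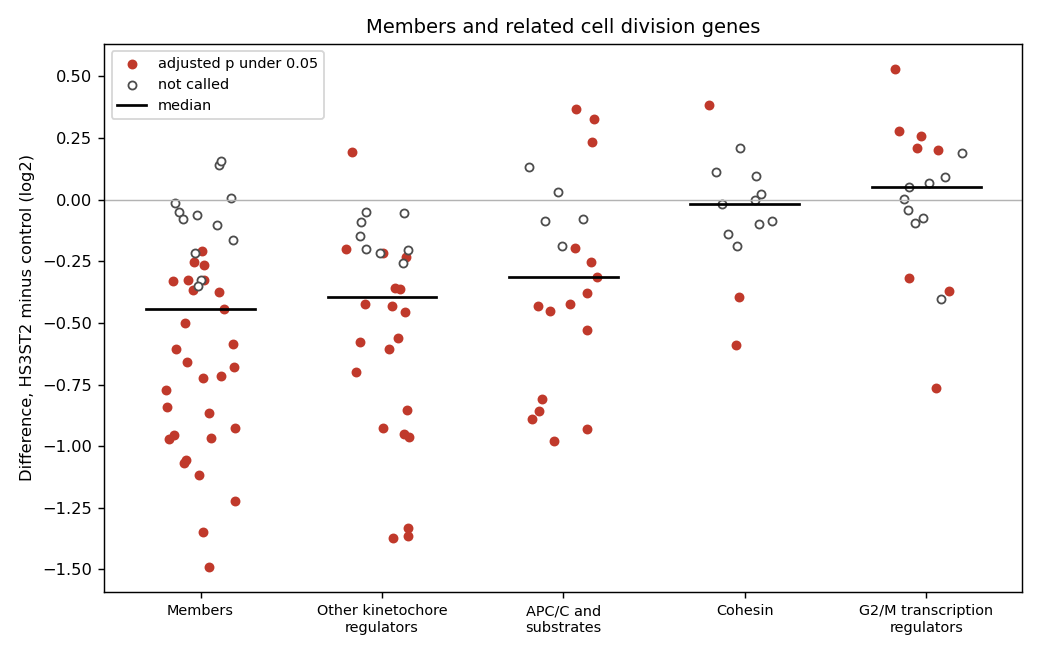
Differences (HS3ST2 minus control, log2) of the members and of 4 lists of related genes, with a point per gene, filled where the adjusted p was under 0.05, and a line at each median. The medians were -0.44, -0.39, -0.31, -0.02 and 0.05 from left to right.

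Ribosomal RNA control probe sets and some leukocyte markers differed between the groups as well. The median of 6 ribosomal RNA control probe sets was 0.02, 0.16 and 0.74 in the HS3ST2-labelled arrays, against -0.20, -0.06 and -0.29 in the control arrays. The highest value was that of HS3ST2 replicate 3, and 29 members fell when this array was left out. That fit does not remove the difference, since the remaining HS3ST2-labelled arrays also lay above every control array. The difference between the 3′ and 5′ probe sets of GAPDH was 0.02 ± 0.02 (SD, n = 3) in HS3ST2-labelled arrays and -0.01 ± 0.02 in control arrays. That of ACTB was 0.09 ± 0.13 in HS3ST2-labelled arrays and -0.06 ± 0.15 in control arrays. Of 9 measured leukocyte markers 3 rose (ITGB2 by 1.11, LCP1 by 0.78 and CORO1A by 0.37) and LAPTM5 fell by 0.59. The other 5 (PTPRC, CD53, CD74, TYROBP and CD3E) were not called. Of all genes, 11.5% were called higher and 13% lower. The mean of the leukocyte list was 0.09 to 0.11 in the HS3ST2-labelled arrays and -0.12 to -0.06 in the control arrays. Of 10 fibroblast markers 1 rose (FBLN1), a share near that of all genes. The mean of the fibroblast list was 0.01 to 0.02 in the HS3ST2-labelled arrays and -0.05 to 0.04 in the control arrays. The part of these measures in the fall of the members was not tested.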

How the data were processed

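Gene expression was measured on 6 Affymetrix arrays, 3 labelled HS3ST2 and 3 control vector. Per the submitters' processing notes the values were made with RMA, which corrects background, equalises arrays and gives log2 values. The deposited log2 values have a median of 0 over the 6 arrays for every probe set, within 4.8e-07, so they were also centred per probe set. No source used here names the software. Base 2 was taken from RMA. Arrays hold no counts, and their number limits precision.

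After 62 control probe sets were set aside, 54613 remained. GEO's platform annotation gave 1 symbol for 41091, several for 1801 and none for 11721, and 41037 were matched to a current gene record. Probe sets of a gene with 1 symbol were averaged, giving 19775 genes. Groups were compared with limma 3.58.1 (lmFit and eBayes, R 4.3.3) over all genes and over all probe sets, with Benjamini-Hochberg adjustment and a threshold of 0.05. The scripts were tested on simulated data. The members, the 4 related lists, the 2 marker lists and the promoter elements were chosen with earlier results of these data known. Values in every array are given for the 2 members of each of 7 role groups with the largest difference, for members not called in a group otherwise called, and for members whose probe sets differ by over 1 log2. Those of CENPA were added after its values were seen. Up to 4 called genes per direction were taken from each related list by smallest p. Of 2 or more starts of a gene, the first listed promoter was used. Alternatives tried were robust eBayes, array weights, median centring, quantile normalization, each array left out, a replicate block, other thresholds, leaving out _x_at and _s_at probe sets, and the probe set with the largest SD. The SD of that last choice was taken over all 6 arrays and so includes the difference between the groups.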

Additional observations from a re-analysis of the deposited data

Results flagged for a closer look

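Control probe sets for ribosomal RNA, which no comparison of genes uses, were higher in every HS3ST2-labelled array than in any control array. The difference of their median was 0.49, from 0.31 ± 0.38 (SD, n = 3) in HS3ST2-labelled arrays and -0.18 ± 0.12 in control arrays (two-sided exact permutation p = 0.1; no smaller p is possible with 3 arrays per group). HS3ST2 replicate 3 had the highest value, at 0.74. Its part in the differences of the kinetochore genes was not tested.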

How the results depend on the processing

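The count of members called lower was 26 to 29 over fits that left out 1 array each, and 25 of the 29 genes were called lower in all of these fits. It was 29 with quantile normalization, median centring, array weights or robust eBayes, 30 with the probe set of largest SD, 25 at an adjusted p under 0.01, 23 of 34 measured without _x_at and _s_at probe sets, and 19 when a difference of at least 0.5 log2 was also required. Genes with only _x_at or _s_at probe sets dropped out of the fit without them. These were CDC20, CDCA8, SKA1 and ZWINT, called lower in the main fit, and CENPA, CENPH and MIS12, not called. One member, CENPT, was called higher (1 gene) with the probe set of largest SD. The median difference was -0.53 to -0.41 over left-out arrays (lowest without control replicate 3), and -0.65 when the probe set of largest SD was used. That SD was taken over all 6 arrays, so this choice favours probe sets with a larger difference between the groups. Counts, calls and medians with this setting are therefore no independent check of the main results. Member probe sets called lower numbered 28 without _x_at and _s_at endings, where 55 were measured. The CENPT probe set called higher was lost (0 called) with a replicate block, robust eBayes, either stricter threshold or without _x_at and _s_at probe sets, and the count was 0 to 1 over left-out arrays. Requiring 0.5 log2 left 11 other kinetochore regulators, 6 APC/C genes, 1 cohesin gene and 1 transcription regulator lower, and without _x_at and _s_at probe sets 12 regulators were lower. Differences near 0 changed sign, with no call. CENPH ranged from -0.067 to 0.075 over left-out arrays, above 0 without HS3ST2 replicate 1 or control replicate 3. SGOL1 ranged from -0.045 to 0.079, below 0 without HS3ST2 replicate 3, control replicate 1 or control replicate 3. CENPI was at 0.0051 without _x_at and _s_at probe sets, and SPC24 at 0.032 and NSL1 at 0.0090 for the probe set of largest SD. No pairing by replicate number was evident, though 3 arrays per group cannot exclude it. Deviations of same-numbered arrays correlated at 0.119, 0.047 and -0.08, and those of arrays with unlike numbers at -0.168 to 0.144. With the replicate block 30 members were lower, CENPA and INCENP being gained and CASC5 lost. The causes were not tested.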
